A study of Mus musculus with 54 samples.

Results

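The nuclear genes of mitochondrial complex I were followed across the dentate gyrus (DG) and the lateral entorhinal cortex (LEC) of mice given saline, AICAR or a running wheel. A probe was a member if the array's annotation gave it a symbol starting with Ndufa, Ndufb, Ndufc, Ndufs or Ndufv, with the assembly factors (Ndufaf) shown apart. This rule found 53 of the 25697 probes, and they belonged to 40 of 16593 gene symbols. Of these, 43 probes of 33 symbols stood for subunits, 8 probes of 5 symbols for assembly factors, and 1 probe each for Ndufa4, now placed in complex IV, and for the pseudogene Ndufs5-ps. The mitochondrially encoded subunits had 0 probes.

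Complex I oxidises NADH, passes the electrons to ubiquinone and pumps protons across the inner mitochondrial membrane. Its N module takes up the electrons, its Q module hands them to ubiquinone, and its membrane arm moves the protons. The core subunits of these modules carry out the catalysis, the accessory subunits surround them, and assembly factors help to build the enzyme without remaining in it. Neurons depend heavily on this respiratory chain for the ATP that drives ion pumping and synaptic transmission, and AMPK, the kinase that AICAR activates, senses the energy state of the cell.

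One-month-old male C57BL/6J mice were housed singly and received saline by daily intraperitoneal injection (CTR), AICAR at 500 mg/kg/day in saline (ACR), or saline with free access to a running wheel (RUN). Tissue was taken after 7, 14 or 28 days, giving CTR7, ACR7, RUN7, ACR14, RUN14, CTR28 and RUN28. The sample titles distinguish a first (CTR14a) and a second (CTR14b) set of 14-day controls, and RUN14 was compared with CTR14a and ACR14 with CTR14b. AICAR was not given for 28 days in these samples. Every group had 3 arrays in each tissue, except DG CTR14a with 2 and LEC CTR28 with 4, for 54 arrays in all (26 DG and 28 LEC). The arrays came from 33 mice by the numbers in the titles, of which 21 gave both tissues, so replicates were separate animals.

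Levels are given as log2 fluorescence intensity after each array was z-transformed and put back on the mean scale of its tissue. A difference of 1 is a doubling of raw intensity only on an array whose SD equals the tissue mean (1.86 in DG, 1.75 in LEC). The SDs of log2 intensity ran from 1.68 to 2.14 over the DG arrays and from 1.57 to 1.86 over the LEC arrays. Log2 differences and folds below refer to the scaled levels. Levels of DG and LEC thus stand on separate scales, and the tissues were tested against each other only on a joint scale of all arrays. Each array detected 11495 to 13219 probes, and replicate arrays correlated between 0.975 and 0.996. The DG label was borne out by the granule neuron markers Prox1 and C1ql2, whose 3 probes were higher in DG than in LEC by 2.19 to 4.67 on the log2 scale, while Tdo2 and Npnt were not detected. Of 8 probes for cortical layer genes 4 were lower in DG, Tbr1 by 1.30 (log2 difference -1.30), where 31.7% of all tested probes were lower and 37% higher. Choroid plexus genes were uneven in DG: their summed signal reached 34999 intensity units in CTR14b, 25677 in ACR7, 21767 in ACR14 and 8000 in RUN28, and was at most 1359 in the arrays of the other 5 groups. Because whole tissue was used, fewer cells of a type and less RNA per cell cannot be told apart. The sources used here give no chip or scan date.

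Of the 53 member probes 48 passed the detection filter and were tested in each tissue, 40 of them for 31 subunit genes and 6 for assembly factors. Ndufs1, a core subunit of the N module, Ndufab1, the mitochondrial acyl carrier protein, Ndufb11 probe 2 and Ndufaf7 probes 2 and 3 were detected on 0 arrays. Probes of the same gene are numbered in the order of their identifiers. Ndufb4 was detected on 14 of 26 DG arrays and on 28 of 28 LEC arrays, and Ndufb11 probe 1 and Ndufaf5 probe 1 on 24 of 26 DG arrays. The other tested probes were detected on every array.

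To show the sequence around the start of the member genes, promoters were taken from RefSeq (GRCm38.p6), 250 bases before to 50 bases after the annotated start, for 36 of the 40 member genes. Each was searched on both strands for the NRF1 palindrome, CCGGAAGT (ETS factors), TCAAGGTCA (estrogen-related receptors) and AAGATGGCG (YY1). AAGATGGCG lay in 5 of the 36 member promoters (13.9%), those of Ndufa9, Ndufc1, Ndufs4, Ndufs6 and Ndufs7, against 1.64% of 27025 genes with a promoter in the table. In all 5 it lay on the sense strand, downstream of the start, beginning between base 23 and base 36. The NRF1 palindrome was found in 2 member promoters (Ndufaf4 and Ndufaf5; 1.07% of all), CCGGAAGT in 1 (Ndufs3; 4.31% of all) and TCAAGGTCA in 0 (0.466% of all). A match describes the letters in this window and is not evidence of a bound site. The promoters of 3 subunits with a match and of Ndufb4, the member with the highest difference in the main comparison, are shown in the direction of the gene, with the matched motif in capitals.
Ndufs4 promoter, chr13:114388045-114388344, minus strand: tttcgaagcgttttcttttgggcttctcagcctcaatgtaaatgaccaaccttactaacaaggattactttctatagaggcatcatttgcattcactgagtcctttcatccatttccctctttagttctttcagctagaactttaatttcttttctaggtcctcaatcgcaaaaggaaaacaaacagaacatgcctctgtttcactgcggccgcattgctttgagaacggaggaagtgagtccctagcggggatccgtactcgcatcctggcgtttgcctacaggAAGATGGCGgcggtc
Ndufs6 promoter, chr13:73328433-73328732, minus strand: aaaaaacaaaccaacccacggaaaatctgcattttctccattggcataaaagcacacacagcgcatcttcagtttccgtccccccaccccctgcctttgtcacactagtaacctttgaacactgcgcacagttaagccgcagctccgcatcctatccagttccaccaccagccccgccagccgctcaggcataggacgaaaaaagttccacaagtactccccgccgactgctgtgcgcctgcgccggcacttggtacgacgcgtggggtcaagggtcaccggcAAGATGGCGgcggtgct
Ndufs3 promoter, chr2:90904672-90904971, minus strand: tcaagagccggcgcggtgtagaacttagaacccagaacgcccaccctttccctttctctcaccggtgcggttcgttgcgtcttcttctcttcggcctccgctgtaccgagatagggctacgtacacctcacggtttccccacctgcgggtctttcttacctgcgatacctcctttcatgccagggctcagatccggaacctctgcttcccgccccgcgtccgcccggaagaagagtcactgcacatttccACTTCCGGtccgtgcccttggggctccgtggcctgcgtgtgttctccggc
Ndufb4 promoter, chr16:37654319-37654618, minus strand: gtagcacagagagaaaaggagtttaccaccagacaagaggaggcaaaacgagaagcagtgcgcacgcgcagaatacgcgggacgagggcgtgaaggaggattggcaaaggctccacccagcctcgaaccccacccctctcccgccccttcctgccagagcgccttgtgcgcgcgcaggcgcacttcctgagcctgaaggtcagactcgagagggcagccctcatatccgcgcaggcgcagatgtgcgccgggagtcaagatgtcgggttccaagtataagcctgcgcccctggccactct
Ndufs4 and Ndufs6 carry AAGATGGCG close to the end of the window, Ndufs3 carries the reverse complement of CCGGAAGT at its start, and none of the 4 motifs was found in the Ndufb4 window.

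Running for 28 days was compared with 28 days of saline in LEC, and here complex I subunit mRNAs were higher as a group. Of 48 member probes 27 rose and 0 fell (limma, Benjamini-Hochberg over 12233 probes), against 6.34% of all tested probes that rose and 7.32% that fell. The 27 comprised 26 of 40 subunit probes and the pseudogene probe Ndufs5-ps. The median log2 difference of the subunit probes was 0.43 (range 0.02 to 0.82), while that of all tested probes was -0.01. All 48 differences were above 0, 39 of them at an unadjusted p under 0.05, where 13.7% of all probes were higher. In 36 of 48 probes every RUN28 array lay above every CTR28 array, which was so for 13.7% of all tested probes.

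Averaged over the 40 subunit probes, the 4 CTR28 arrays read 10.58, 10.44, 10.64 and 10.65, and the 3 RUN28 arrays 10.96, 10.95 and 11.05. The RUN28 arrays did not overlap with the controls and lay above every other LEC array, which spanned 10.34 to 10.94. In DG the RUN28 arrays (11.17 to 11.32) overlapped with CTR28 (11.06 to 11.21).

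**Figure D1:**
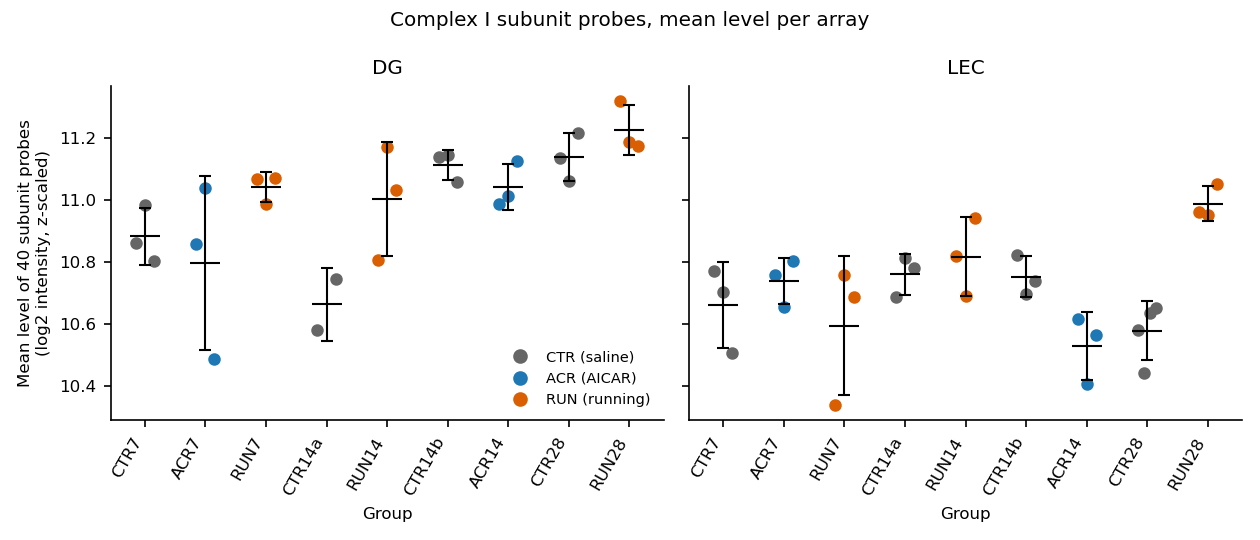
Mean level of the 40 tested complex I subunit probes (log2 intensity, z-scaled within the tissue, so that levels are not comparable between panels) on each array, by group, in DG and LEC. Points are arrays, and the horizontal line and bars are the group mean ± SD. The 3 LEC RUN28 arrays, 10.95 to 11.05, lie above all other LEC arrays.

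Among the core subunits 3 of 5 rose. Ndufv2, which carries an iron-sulphur cluster of the N module, read 11.62, 11.63, 11.88 and 11.71 in CTR28 and 11.96, 12.25 and 12.30 in RUN28. Every RUN28 value exceeded every control, and the difference was 0.46 ± 0.11 (SE; 1.38-fold, adjusted p = 0.0101). Ndufs8, an iron-sulphur subunit of the Q module, read 11.08, 10.96, 11.38 and 11.22 in CTR28 and 11.61, 11.55 and 11.65 in RUN28 (0.44 ± 0.12, adjusted p = 0.0164). Ndufs3, a scaffold of the Q module, read 11.31, 11.31, 11.38 and 11.38 against 11.60, 11.67 and 11.76 (0.33 ± 0.10, adjusted p = 0.0355). Neither gene overlapped between the groups. Of 17 alternatives, 9 ended the call of Ndufs3 (adjusted p 0.0226 to 0.157), among them quantile normalization, neqc, median centring, the replicate block and leaving out any 1 of 5 arrays, while 3 each ended those of Ndufv2 and Ndufs8. Ndufs7, which holds the last iron-sulphur cluster before ubiquinone, differed by 0.26 ± 0.13 (adjusted p = 0.166). Ndufv1, the NADH-binding subunit, read 12.39, 12.31, 12.87 and 12.40 against 12.44, 12.57 and 12.74, so that its groups overlapped (0.09 ± 0.14, adjusted p = 0.716).

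Of the 10 accessory probes of the N module 8 rose. Ndufa12, an accessory subunit that joins late in assembly, read 11.04, 11.04, 10.98 and 11.12 in CTR28 and 11.52, 11.53 and 11.73 in RUN28. Its groups were well apart, with a difference of 0.55 ± 0.10 (1.47-fold, adjusted p = 0.00157). Ndufs4, whose loss causes a Leigh-like encephalopathy in mice, had 4 probes, and all 4 rose by 0.46 to 0.62. Its probe 4 read 9.91, 9.93, 9.74 and 10.07 in CTR28 and 10.39, 10.39 and 10.80 in RUN28 (0.62 ± 0.12, 1.53-fold, adjusted p = 0.00231). The groups did not overlap on any of the 4 probes, and RUN28 replicate 3 was the highest array on each. Ndufs6, a zinc-binding subunit, rose by 0.56 (adjusted p = 0.0172) and Ndufa2 by 0.58 (adjusted p = 0.00778). Ndufv3 had 3 probes that differed: probe 1 rose by 0.45, probe 3 stood at 0.36 (adjusted p = 0.0652) and probe 2 at 0.07 (adjusted p = 0.726).

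In the Q module 3 of 5 accessory probes rose, namely Ndufa7 (0.50, adjusted p = 0.00745), Ndufa6 (0.40) and Ndufa5 probe 1 (0.43). Ndufa5 probe 2 differed by 0.36 (adjusted p = 0.164) and Ndufa9 by 0.32 (adjusted p = 0.0724). In the membrane arm 12 of 20 accessory probes rose. Ndufb4 had the largest difference of all tested members: it read 6.61, 6.78, 6.46 and 7.13 in CTR28 and 7.67, 7.53 and 7.50 in RUN28 (0.82 ± 0.14, 1.76-fold, adjusted p = 0.00141). The groups did not overlap, although the control arrays were widely spread (SD 0.29). Ndufa3 read 11.54, 11.25, 11.35 and 11.57 against 12.14, 11.92 and 12.22 (0.66 ± 0.15, adjusted p = 0.00711). Ndufb3 read 10.81, 10.62, 10.67 and 10.81 against 11.26, 11.19 and 11.25 (0.50 ± 0.11, adjusted p = 0.00687), with RUN28 arrays that were close together and all above the controls. Ndufb2 (0.63, a call lost in 9 of 17 alternatives), Ndufa1 (0.56), Ndufb9 (0.52), Ndufa13 (0.46), Ndufc1 probe 1 (0.44), Ndufb5 (0.43), Ndufb7 (0.40), Ndufb6 probe 1 (0.39) and Ndufa8 probe 1 (0.30) rose too. Ndufa10, a subunit with a nucleoside kinase fold, had the smallest difference (0.02 ± 0.14, adjusted p = 0.935), with controls from 11.56 to 12.36 that enclosed all RUN28 values.

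The assembly factors did not pass the test. Of their 6 probes 0 rose, 2 had an unadjusted p under 0.05, and the median log2 difference was 0.22. Ndufaf5 probe 2 (0.26, adjusted p = 0.0980) and Ndufaf4 (0.27, adjusted p = 0.157), which acts on early assembly intermediates, had RUN28 arrays above all controls. Ndufaf1 differed by 0.05 (adjusted p = 0.756). Whether the assembly factors differ from the subunits was not tested. Ndufa4, of complex IV, read 13.14, 12.86, 13.40 and 13.09 in CTR28 and 13.46, 13.32 and 13.70 in RUN28, an overlap at a difference of 0.37 (adjusted p = 0.0951). The Ndufs5-ps probe rose by 0.48 (adjusted p = 0.00789), and since probe sequences were not used here, whether it also reads the parent gene Ndufs5 was not tested.

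**Figure D2:**
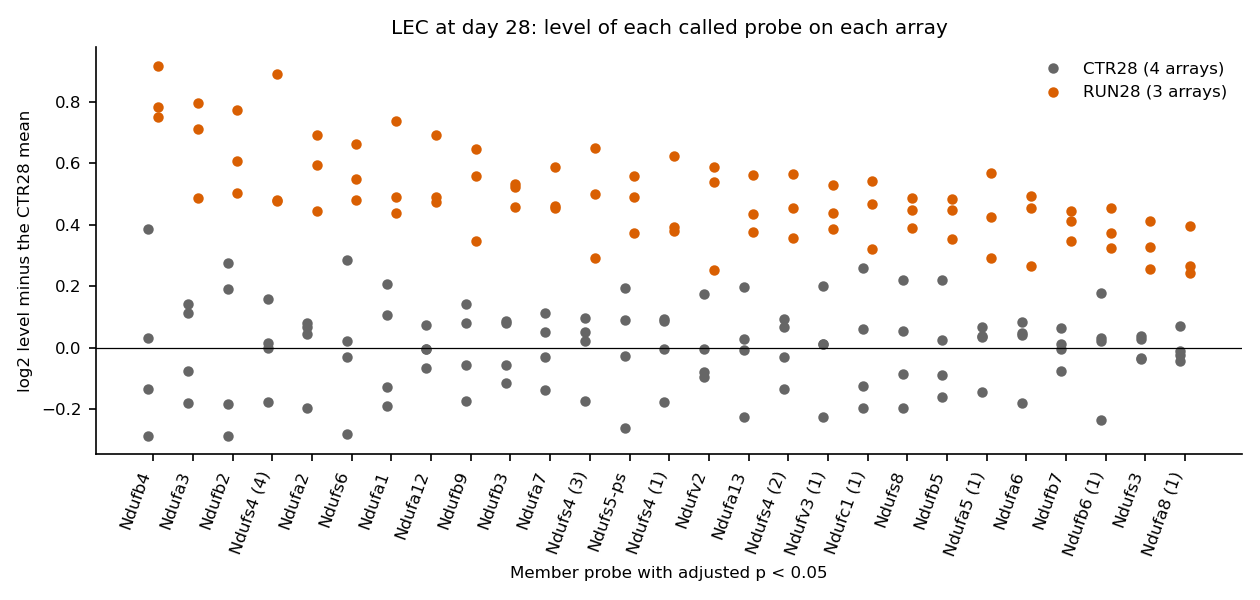
Log2 level of each of the 27 LEC probes that rose, on each of the 4 CTR28 and 3 RUN28 arrays, minus the probe's CTR28 mean and ordered by difference. Numbers in brackets tell probes of 1 gene apart. For every probe shown the RUN28 points lie above the CTR28 points, and Ndufb4 stands at 0.82.

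Other genes of the pathway were read from lists, in a comparison where 6.34% of all tested probes rose and 7.32% fell. Complex II, the second entry point of electrons, was listed with its assembly factors, and 5 of their 7 probes rose. Among these were both probes of Sdhb (0.54 and 0.53) and the assembly factors Sdhaf4 (0.48) and Sdhaf1 (0.46). Of 18 probes for further complex I assembly genes 4 rose, 2 of them for Lyrm2 (0.49 and 0.45), with Tmem126b at 0.50. Of 21 probes for ubiquinone synthesis and other NADH or quinone entry genes 2 rose, Etfa (0.34) and Etfb (0.30), the electron transfer flavoprotein. Of 15 probes for regulators of respiratory genes 0 passed the test (0 higher and 2 lower at an unadjusted p under 0.05) with a median of -0.02.

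The RUN28 result in LEC depended on single arrays. Without RUN28 replicate 3 the count fell to 6 (1.48% of all probes; Ndufb4, Ndufa12, Ndufb3, Ndufb7 and Ndufs4 probes 2 and 4), without CTR28 replicate 2 to 13 (2.87%) and without RUN28 replicate 2 to 16 (2.84%), while the subunit median stayed between 0.38 and 0.46 when any 1 array was left out. The LEC CTR28 arrays were themselves low: against the controls of days 7 and 14, 8 of 48 member probes fell and 0 rose (4.9% of all probes fell and 3.11% rose), with a subunit median of -0.16. RUN28 against those earlier controls gave 10 member probes that rose (4.31% of all), 8 of them shared with the 27, and a median of 0.27. Cell type markers were also read for RUN28 against CTR28, where 6.34% of all tested probes rose and 7.32% fell. The summed intensity of the 6 cortical layer genes was 2756 to 3515 in RUN28 and 3951 to 4627 in CTR28, with 1 of 8 probes lower (Reln, -0.72, adjusted p = 0.00806), and that of the 4 endothelial genes measured was 954 to 999 against 1142 to 1468, with 1 of 4 lower (Flt1, -0.67). The 4 oligodendrocyte genes summed to 18122 to 29148 against 14805 to 20908, with 2 of 8 probes higher (Mog, 1.05 and 0.94) and 1 lower (Mbp, -0.89). Of the neuronal (4), astrocyte (7) and microglial (5) probes 0 passed the test (limma; 4 higher and 1 lower at an unadjusted p under 0.05), and the neuronal sum was 30027 to 39731 against 27443 to 38597, Snap25 not being detected. The part of these in the complex I differences was not tested.

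In DG the same comparison was made with 3 arrays in each group. Of 48 member probes 0 passed the test (limma; 1 higher and 1 lower at an unadjusted p under 0.05, against 6.7% and 6.62% of all probes), where 0.166% of all probes rose and 0.166% fell, and the subunit median was 0.12 (0.03 for all probes), with a range of 0.04 to 0.13 when 1 array was left out. Against the controls of days 7 and 14, 5 members rose in DG RUN28 (1.35% of all). Against CTR28 only Ndufaf4, at -0.61, and Ndufa5 probe 2, at 0.37, had an unadjusted p under 0.05. Next in size were Ndufb9 (0.26) and Ndufv3 probe 3 (0.25) above 0, and Ndufa12 (-0.21) and Ndufb4 (-0.20) below. The core subunits lay between -0.02 (Ndufv2) and 0.22 (Ndufs8). The test of the difference between tissues, in a joint fit of all 54 arrays, found 4 member probes with a lower RUN28 effect in DG than in LEC and 0 with a higher one, against 1.14% and 2.82% of all probes, with a subunit median of -0.33. These effects were measured from 28-day controls that lay on opposite sides of the earlier controls. In DG CTR28 the subunit median stood 0.22 above the controls of days 7 and 14, with 13 member probes higher at an unadjusted p under 0.05 (9.03% of all) and 0 called (0.498% of all rose and 0.514% fell), whereas in LEC CTR28 it was -0.16. With RUN28 set against those earlier controls in both tissues, 0 members passed the test of the tissue difference (limma; 0.13% of all probes were called higher and 0% lower), 1 being higher and 1 lower at an unadjusted p under 0.05 (5.82% and 3.11%), and the subunit median was 0.0655. For Ndufb4 the DG arrays read 6.57, 6.98 and 7.75 in CTR28 and 6.82, 6.80 and 7.09 in RUN28, so that the groups overlapped, and the effect differed from LEC by -1.04 ± 0.25 (adjusted p = 0.0125). This probe was detected on only 14 of 26 DG arrays. For Ndufa12 the DG arrays read 12.18, 12.10 and 12.21 in CTR28 and 12.17, 11.82 and 11.87 in RUN28 (difference of effects -0.77 ± 0.19, adjusted p = 0.0148). Ndufs5-ps (-0.65, adjusted p = 0.0260) and Ndufaf4 (-0.86, adjusted p = 0.0279) were the others. Ndufaf4 read 9.69, 10.21 and 10.68 in DG CTR28 and 9.80, 9.30 and 9.66 in DG RUN28, an overlap, while on the LEC scale it read 8.50 to 8.70 in CTR28 and 8.77 to 8.92 in RUN28. The count of 4 fell to 1 without DG CTR28 replicate 3 (0.551% of all), which was the highest control for both Ndufb4 and Ndufaf4, or without LEC RUN28 replicate 3 (0.413%), to 2 without DG RUN28 replicate 2 (0.559%), and to 0 (0.115%) when arrays were centred on their median without division by the SD. Among 21 or 22 alternatives, the calls of Ndufb4 and Ndufa12 were lost in 3 each, that of Ndufaf4 in 6 and that of Ndufs5-ps in 8. The summed choroid plexus genes were 2250 to 8000 in DG RUN28 and 444 to 1359 in DG CTR28, and their part in these differences was not tested.

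**Figure D3:**
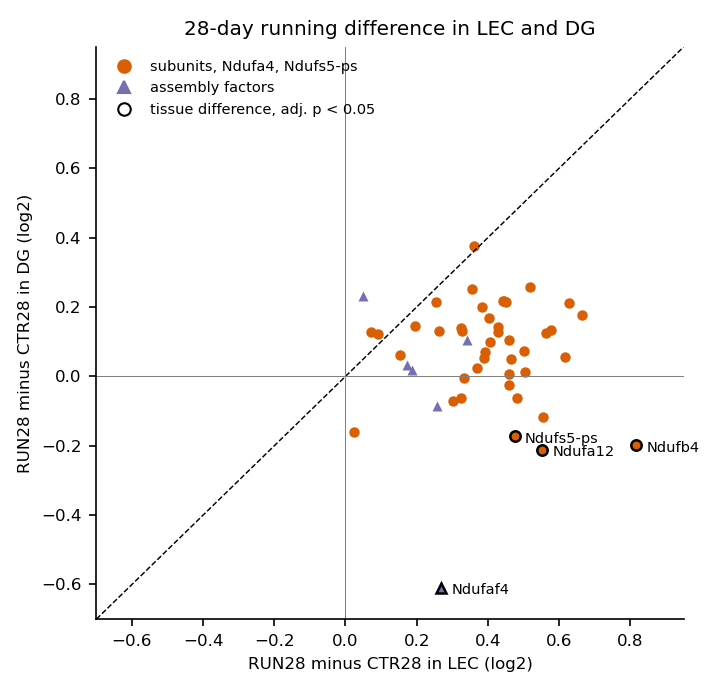
Log2 difference between RUN28 and CTR28 for each of 48 member probes in LEC (horizontal axis) and DG (vertical axis). Each axis is on the scale of its own tissue, and the line of equality is dashed. Black outlines mark the 4 probes whose effect differed between tissues at an adjusted p under 0.05 in the joint fit. Of the 48 probes 44 have a lower effect in DG. With RUN28 set against the controls of days 7 and 14 instead, the subunit median of the tissue difference was 0.0655.

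Running for 7 days was compared with CTR7 in the same way. In DG 2 of 48 member probes rose and 0 fell, against 4.41% and 3.05% of all probes, and the subunit median was 0.16. Leaving out 1 array moved this median between 0.06, without CTR7 replicate 3, and 0.25, without CTR7 replicate 2. Ndufaf7, an assembly factor with methyltransferase activity, read 8.58, 8.85 and 8.05 in CTR7 and 9.41, 9.12 and 9.03 in RUN7 (0.69 ± 0.19, 1.62-fold, adjusted p = 0.0285). Ndufa12 read 11.26, 11.60 and 11.28 against 11.97, 11.98 and 11.92 (0.58 ± 0.17, 1.49-fold, adjusted p = 0.0377). Neither overlapped between the groups, and the RUN7 arrays of Ndufa12 lay close together. Every RUN7 array lay above every control in 16 of 48 member probes and in 20.3% of all tested probes. Ndufb5 (0.55, adjusted p = 0.0808) and Ndufa5 probe 2 (0.51, adjusted p = 0.0703) came next. At the other end stood Ndufv1 (-0.36), Ndufs6 (-0.27) and Ndufv3 probe 1 (-0.26), with adjusted p from 0.221, and the other core subunits lay between Ndufs7 at -0.16 and Ndufs3 at 0.19. The call depended on single arrays and on the scaling: 0 member probes rose if RUN7 replicate 1, RUN7 replicate 3 or CTR7 replicate 3 was dropped (0.0316%, 1.79% and 0.0079% of all probes), 1 without CTR7 replicate 1 (3.72%) and 5 without CTR7 replicate 2 (6.94%). Centring arrays on their median without division by the SD gave 16, where 8.74% of all probes rose. Without RUN7 replicate 2 both Ndufa12 and Ndufaf7 lost their calls while other members gained one. Of 15 alternatives, 8 ended the call of Ndufa12 (adjusted p 0.0143 to 0.188 over all 15) and 6 that of Ndufaf7 (0.00859 to 0.235). With median centring the median of all probes stood at 0.22 and that of the subunit probes at 0.54.

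The pathway and marker lists of the DG RUN7 comparison stand beside 4.41% of all tested probes that rose and 3.05% that fell. Foxred1, a complex I assembly gene, rose on 3 probes (0.47 to 0.61), and with Acad9 (0.42) and Tmem70 (0.50) made 5 of 18 assembly probes. Both Sdhb probes (0.68 and 0.69) rose among 7 probes for complex II and its assembly factors. So did Coq5 (0.58) and Coq6 (0.61) of ubiquinone synthesis among the 20 probes of their list. Of 17 regulator probes 1, that of the coactivator Ppargc1b, fell by 0.57. The summed neuronal markers were 30325 to 34608 in RUN7 and 39898 to 58706 in CTR7, with 1 of 4 probes lower (Syt1, -0.61, adjusted p = 0.0414) and all 4 lower at an unadjusted p under 0.05. Of 8 cortical layer probes 2 were higher, both for Etv1 (1.26 and 1.30), and of 7 astrocyte probes 1, that of Aldh1l1 (0.46, adjusted p = 0.0406). The summed astrocyte markers went the other way, with 24595 to 26871 in RUN7 and 27588.5 to 31818 in CTR7. The part of these markers in the complex I differences was not tested. In LEC RUN7 0 members passed the test (limma; 0 higher and 4 lower at an unadjusted p under 0.05, 3 of these for Ndufs4, against 8.14% and 7.99% of all probes), where 0.376% of all probes rose and 0.139% fell. The RUN7 effect was higher in DG than in LEC for 1 member, Ndufaf7 (0.78 ± 0.22, adjusted p = 0.0474), against 1.28% of all probes. In LEC Ndufaf7 read 8.87, 8.58 and 8.95 in CTR7 and 8.78, 8.74 and 8.57 in RUN7, which overlapped. The highest LEC RUN7 differences were those of Ndufa5 probe 2 (0.36), Ndufaf5 probe 1 (0.34) and Ndufb4 (0.29), and the lowest those of Ndufs4 probes 1 (-0.33), 4 (-0.31) and 2 (-0.30). The count of 1 member with a higher RUN7 effect in DG ranged from 0 to 5 when 1 array was left out and reached 25 with median centring, where 8.77% of all probes were called higher. It was 0 without DG CTR7 replicate 1 or 3, DG RUN7 replicate 1 or 3, LEC CTR7 replicate 1 or LEC RUN7 replicate 3, where 0.0459% to 0.819% of all probes were called. It was 5 without DG CTR7 replicate 2 (3.83%), 3 without LEC CTR7 replicate 2 (2.31%) and 2 without DG RUN7 replicate 2 (1.58%). Ndufaf7 itself lost the call in 11 of 20 alternatives (adjusted p 0.0119 to 0.186), among them quantile normalization, neqc, testing without the detection filter and leaving out LEC CTR7 replicate 3 or LEC RUN7 replicate 2.

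Running for 14 days against CTR14a gave 0 called members in either tissue (0% of all probes passed in either direction). In DG the RUN14 arrays were higher than CTR14a, with a subunit median of 0.34, and 18 of 48 member probes were higher at an unadjusted p under 0.05 (3.56% of all probes), but the smallest adjusted p was 0.744. Ndufa3 illustrates it, with 11.79 and 11.94 in CTR14a and 12.46, 12.93 and 12.71 in RUN14, while CTR14b read 12.46, 12.55 and 12.26. CTR14a thus lay below both other groups. Ndufa12 (0.64) and Ndufc1 probe 1 (0.60) followed, the core subunit Ndufs8 stood at 0.58, and Ndufaf4 (-0.32), Ndufaf5 probe 1 (-0.16) and Ndufa5 probe 2 (-0.06) were lowest. The 2 control sets themselves differed: CTR14b exceeded CTR14a by a subunit median of 0.41, with 23 of 48 probes at an unadjusted p under 0.05 (8.81% of all higher) and 0 called (0.0079% of all rose and 0.0395% fell). Against CTR14b the RUN14 subunit median was 0.01, and 5 member probes fell (1.07% of all): Ndufb9 (-0.89), Ndufb10 (-0.88), Ndufb6 probe 2 (-0.82), Ndufa5 probe 2 (-0.68) and Ndufaf5 probe 1 (-0.68), with adjusted p from 0.0279 to 0.0453. The choroid plexus sum was 568 to 1095 in CTR14a and 758 to 34999 in CTR14b. The granule neuron sum was 9304 to 15783 in CTR14a and 6179 to 11395 in CTR14b, with all 3 probes below 0 (-0.39 to -1.58), and 7 of 8 oligodendrocyte probes were above 0 (median 0.63). Of these marker probes 0 were called (limma; 1 granule neuron probe lower and 1 oligodendrocyte probe higher at an unadjusted p under 0.05), and the part of these genes in the difference was not tested. In LEC the RUN14 median was 0.07 (-0.0055 to 0.14 when 1 array was left out, below 0 without RUN14 replicate 3), with 0 members at an unadjusted p under 0.05 (5.13% of all probes were higher and 3.42% lower), and CTR14b differed from CTR14a by a median of -0.0008. The LEC RUN14 members ran from Ndufb4 (-0.30), Ndufs4 probe 3 (-0.27) and Ndufaf5 probe 1 (-0.21) to Ndufb6 probe 2 (0.23), Ndufb10 (0.24) and Ndufb11 probe 1 (0.29), and the core subunits from Ndufv1 (-0.09) to Ndufs7 (0.19).

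AICAR was compared with saline after 7 and 14 days. In DG 0 member probes passed the test after 7 days (limma; 0.0079% of all probes rose and 0% fell), 2 being higher and 4 lower at an unadjusted p under 0.05 (10.8% and 5.35% of all probes), with a subunit median of -0.07 that was 0.40 with median centring, where the median of all probes was 0.29. This median also turned when 1 array was left out, to 0.10 without ACR7 replicate 3 and 0.04 without CTR7 replicate 2, and was lowest without ACR7 replicate 2 (-0.21). The smallest adjusted p was that of Ndufv1, which read 13.03, 12.82 and 13.35 in CTR7 and 12.62, 12.66 and 12.28 in ACR7, without overlap (-0.54 ± 0.18, adjusted p = 0.145). Every ACR7 array lay below every control in 6.71% of all tested probes. Ndufv3 probe 1 (-0.54) and Ndufb10 (-0.46) were also low, and Ndufaf7 (0.49), Ndufb11 probe 1 (0.33) and Ndufb4 (0.31) were highest. After 14 days the DG median was -0.05 (-0.10 to -0.03 when 1 array was left out) with 0 members called (limma; 0% of all probes; 0 higher and 1 lower at an unadjusted p under 0.05, against 2.41% and 1.52%). Its members ran from Ndufa5 probe 2 and Ndufs5-ps (both -0.30) and Ndufs4 probe 4 (-0.27) to Ndufaf3 (0.09), Ndufa10 (0.13) and Ndufb11 probe 1 (0.27), and the core subunits from Ndufv2 (-0.09) to Ndufv1 (0.05). Against CTR14a the median was 0.31. The choroid plexus sum reached 25677 in ACR7 against at most 569 in CTR7. The neuronal sum was 26714 to 35769 in ACR7 and 39898 to 58706 in CTR7, with 0 of 4 probes called and all 4 lower at an unadjusted p under 0.05 (-0.50 to -0.68). The part of both in the ACR7 values was not tested. ACR7 and RUN7 share their controls, and compared with each other in DG, ACR7 was lower by a subunit median of -0.24 with 0 called (limma; 0% of all probes; 0 higher and 3 lower at an unadjusted p under 0.05, against 4.49% and 3.36%). That median was -0.40 without ACR7 replicate 2 and -0.07 without ACR7 replicate 3.

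In LEC 0 of 48 passed the test after 7 days of AICAR (limma; 0.703% of all probes rose and 0.605% fell; 6 higher and 1 lower at an unadjusted p under 0.05, against 8.02% and 7.52%), with a median of 0.08 that ranged from -0.01, without CTR7 replicate 3, to 0.13 when 1 array was left out. The smallest adjusted p was that of Ndufaf5 probe 1, which read 7.38, 7.16 and 6.93 in CTR7 and 7.95, 7.80 and 7.73 in ACR7 (0.67 ± 0.18, adjusted p = 0.0539). In human cells Ndufaf5 hydroxylates a core subunit during assembly. All 3 ACR7 arrays lay above the controls on probe 1, whereas the groups overlapped on probe 2 (9.73, 9.23 and 9.35 against 9.35, 9.40 and 9.41). In 8.88% of all tested probes every ACR7 array lay above every control. Ndufb9 was next, with 8.84, 8.83 and 8.52 against 9.38, 9.03 and 9.49 (0.57 ± 0.17, adjusted p = 0.0893). Ndufa5 probe 2 stood at 0.59 (adjusted p = 0.106), and Ndufaf4 (-0.36), Ndufs4 probe 1 and Ndufs4 probe 2 (both -0.19) were lowest. After 14 days 0 of 48 passed the test (limma; 0% of all probes), but 45 lay below 0, 18 of them at an unadjusted p under 0.05 (6.87% of all probes were lower), and the subunit median was -0.26 (-0.31 to -0.16 when 1 array was left out, nearest 0 without ACR14 replicate 2). In 17 probes every ACR14 array lay below every CTR14b array (7.58% of all). Ndufb10, of the membrane arm, read 8.63, 8.72 and 8.84 in CTR14b and 8.38, 7.94 and 8.26 in ACR14 (-0.54 ± 0.13, adjusted p = 0.187). Ndufc1 probe 2 read 10.60, 10.62 and 10.40 against 10.39, 9.73 and 10.05 (-0.48 ± 0.15, adjusted p = 0.227), and its probe 1 differed by -0.44. Of the core subunits Ndufs8 (-0.29), Ndufs7 (-0.27) and Ndufv1 (-0.23) were further from 0 than Ndufv2 (-0.10) and Ndufs3 (-0.05), and the highest members were Ndufs4 probes 3 (0.09) and 4 (0.07) and Ndufa8 probe 1 (0.06). For Ndufb10 and both Ndufc1 probes the groups did not overlap, and ACR14 replicate 2 was the lowest array each time. The change of effect from 7 to 14 days had a subunit median of -0.34 and its smallest adjusted p was 0.0728 (Ndufb10, -0.82 ± 0.19), where 0.0572% of all probes fell and 0% rose. Without ACR14 replicate 1, 2 members fell after 14 days (0.973% of all) and 3 in the change of effect (0.793%).

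**Figure D4:**
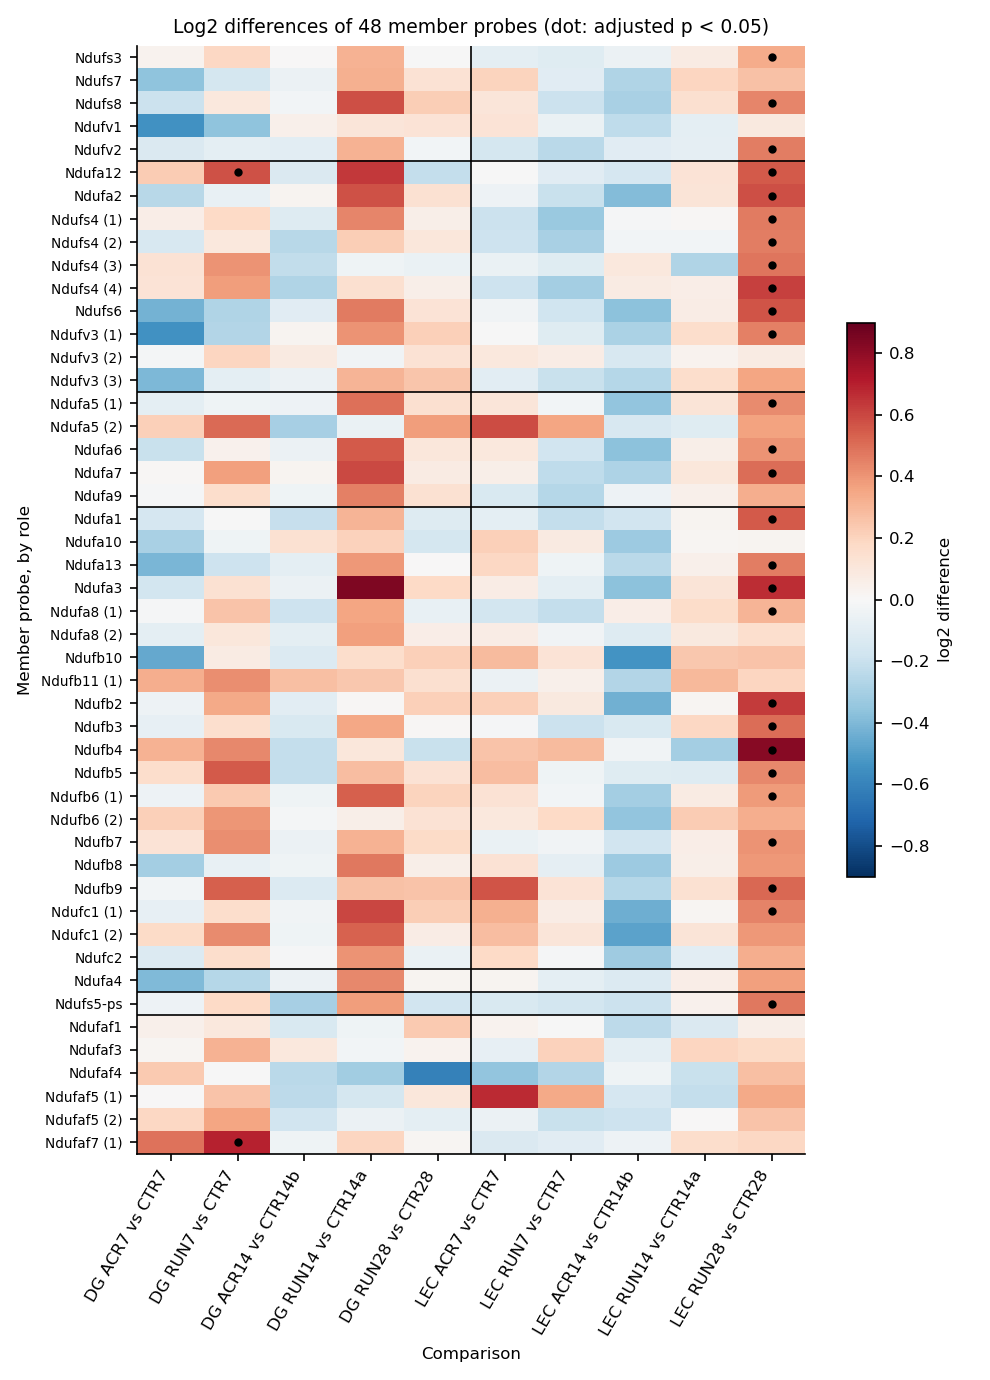
Log2 difference of each of 48 tested member probes (rows, grouped by role from core subunits to assembly factors) in the 5 treatment comparisons of DG and the 5 of LEC (columns). Red is higher and blue lower in the treated group, and dots mark an adjusted p under 0.05, of which LEC RUN28 has 27 and DG RUN7 has 2.

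The tissues were compared in level as well. Over the 9 groups, 26 of 48 member probes were lower and 4 higher in DG than in LEC, against 31.7% and 37% of all probes, with a subunit median of -0.13. This direction turned with the scaling, since median centring gave 8 lower and 29 higher, against 18.5% and 51% of all probes, and a median of 0.17, where all probes stood at 0.14. On the joint scale Ndufb9 had the lowest difference, spanning 7.32 to 9.10 (median 8.45) over the DG arrays and 8.46 to 10.08 (median 9.47) over the LEC arrays (-1.09 ± 0.07 between the means of the group levels, adjusted p = 2.91e-18). Ndufaf4 lay the other way, at 9.12 to 10.46 (median 9.73) in DG and 8.66 to 9.78 (median 8.97) in LEC (0.75 ± 0.06, adjusted p = 4.36e-15). On this scale the ranges of both overlapped between the tissues. Ndufb5 (-0.77), Ndufb2 (-0.72), Ndufb4 (-0.53), Ndufb10 (-0.48) and Ndufs6 (-0.34) were lower in DG, the last turning to 0.02 with median centring. Probes of 1 gene disagreed: Ndufa5 probe 2 stood at -0.74 and probe 1 at 0.01, and Ndufaf5 probe 1 at -0.98 and probe 2 at 0.08. For Ndufs4, probe 1 was higher in DG (0.12, adjusted p = 0.0313), probes 2 (-0.11, adjusted p = 0.0287) and 3 (-0.28, adjusted p = 0.000499) were lower, and probe 4 stood at -0.10 (adjusted p = 0.0616). Ndufs5-ps (0.21), Ndufv3 probe 2 (0.17) and Ndufs4 probe 1 (0.12) were the other 3 higher in DG. Of the core subunits Ndufv1 (-0.23), Ndufs8 (-0.16) and Ndufs7 (-0.13) were lower in DG, all 3 turning positive with median centring.

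**Figure D5:**
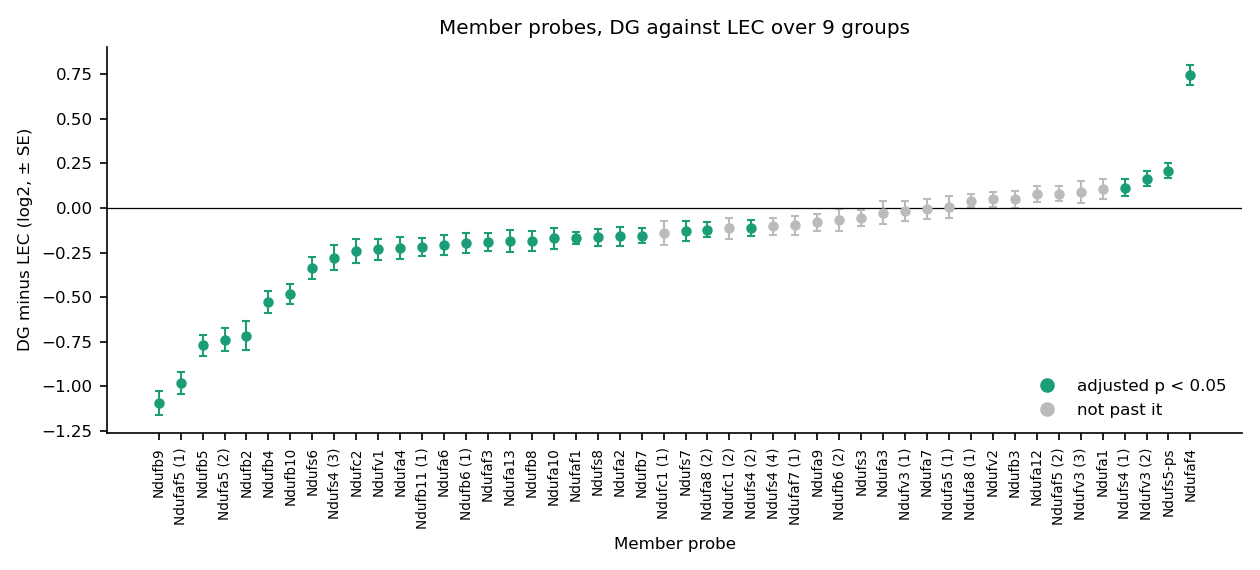
Log2 difference between DG and LEC for each of 48 member probes, averaged over the 9 groups, with standard errors, in ascending order. Green marks an adjusted p under 0.05. The values run from -1.09 for Ndufb9 to 0.75 for Ndufaf4.

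Within groups the subunit probes varied together from array to array. After group means were subtracted, the 780 pairs among 40 subunit probes had a median correlation of 0.46 over the 28 LEC arrays, and 95% of pairs were positive, while all tested probes had a median of 0.01. In DG the median was 0.39 over 26 arrays with 77.8% positive. The probes share their array and its scaling, and with quantile normalization the medians were 0.40 and 0.34. Probes of the same gene did not always follow each other. In DG, Ndufs4 probes 2, 3 and 4 correlated with each other at 0.80 to 0.86 but with probe 1 at -0.19 to 0.16, and Ndufv3 probes 1 and 3 correlated at 0.89 but with probe 2 at -0.29 and -0.17. In LEC all 4 Ndufs4 probes correlated at 0.38 to 0.68. Ndufc1 probes 1 and 2 correlated at 0.84 in DG and 0.88 in LEC.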

How the data were processed

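RNA from DG and LEC had been hybridised to Illumina MouseRef-8 arrays, and the authors read them with GenomeStudio 1.6.0. The deposited table held non-normalized fluorescence intensity per probe and, per the file headers, a detection p-value for each array. A deposited score, which the authors made by z-transforming log intensities within an array, was available too, and the recomputed z values differed from it by 0 at most. Intensities were taken as log2, z-transformed per array and returned to the mean scale of the tissue. Probes with a detection p of at most 0.02 on every array of at least 1 group were tested (12658 in DG, 12233 in LEC and 13067 jointly).

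Groups came from the labels. Each tissue was fitted with 1 mean per group over all its arrays in limma 3.58.1 (R 4.3.3), with p-values adjusted by Benjamini-Hochberg over all tested probes and called at 0.05. Effects between tissues came from a joint fit of 54 arrays in which mouse was a random block (correlation -0.06). The fit was tested on simulated data: for LEC RUN28 (12233 probes) it recovered 59% of changes of 0.5 log2 and 96% of changes of 1, and for DG RUN28 (12658 probes) 21% and 76%. The simulation changed 100 probes by each size and gave every probe independent noise. In the measured LEC RUN28 comparison 6.34% of probes rose and 7.32% fell, and members varied together. The simulated rates need not hold there.

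By rule, the text names the core subunits and, per comparison of treatment with control, up to 10 members passing the threshold and the 3 highest and 3 lowest; other named members were chosen after their values were seen. The members and lists were chosen with earlier results of these data known. Alternatives covered the normalization, detection filter, probes per gene, controls, blocks and each array left out. The number of arrays limits the precision. Same-numbered replicates did not vary together in every pair of any comparison (29 pairs).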

Additional observations from a re-analysis of the deposited data

Results flagged for a closer look

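The 4 LEC CTR28 arrays were checked for 20 readings, namely the probes named by rule and the subunit mean. In 2 of the 20 readings 1 array stood far from the other 3. Independent readings would pass this limit in about 1 in 20. These readings share their 4 arrays, so their count cannot be judged against that rate. For Ndufa2 the lowest array read 11.50 and the nearest other 11.74. For Ndufv1 the highest read 12.87 and the nearest other 12.40.

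The effect of running differed between tissues for 5 probes by the joint test. Of all tested probes 1.28% were called higher in DG and 1.28% lower for the RUN7 effect. For the RUN28 effect these shares were 2.82% and 1.14%. After 7 days the effect on Ndufaf7 was higher in DG than in LEC by 0.78 (adjusted p = 0.0474), a call lost in 11 of 20 alternatives. After 28 days it was lower in DG for Ndufb4 (-1.04, adjusted p = 0.0125), Ndufa12 (-0.77, adjusted p = 0.0148), Ndufs5-ps (-0.65, adjusted p = 0.0260) and Ndufaf4 (-0.86, adjusted p = 0.0279), and none of these 4 passed when RUN28 was set against the controls of days 7 and 14 (adjusted p 0.670 to 0.987).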

How the results depend on the processing

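Of 1248 values of 72 summary results under alternatives, 1164 kept within the limits set for them. Changes below are log2 subunit medians or counts of member probes, with the share of all tested probes called in brackets, and their cause was not tested. Median centring without division by the SD moved the medians to 0.40 (DG ACR7), 0.54 (DG RUN7), 0.14 (DG RUN14), -0.56 (DG ACR14 minus ACR7), -0.27 (DG ACR14 minus RUN14), -0.23 (LEC RUN7), 0.21 (LEC RUN14), -0.20 (LEC ACR14 minus ACR7) and 0.17 (DG against LEC), and the DG minus LEC effects to 0.48 (ACR7), 0.78 (RUN7) and -0.0472 (RUN14). It gave 1 higher member in DG ACR7 (4.01%), 16 in DG RUN7 (8.74%), 29 higher (51%) and 8 lower (18.5%) in DG against LEC, 25 higher for the RUN7 effect (8.77%) and 0 lower for the RUN28 effect (0.115%), and turned Ndufs7 (0.20), Ndufs8 (0.13), Ndufv1 (0.13) and Ndufs6 (0.0202) positive in DG against LEC. Quantile normalization gave 3 higher in DG CTR14b against CTR14a (0.126%), 9 higher (35.7%) and 17 lower (34.6%) in DG against LEC, 3 higher for the RUN7 effect (0.949%) and 0.0309 for the ACR7 effect between tissues. Background correction with neqc gave 1 in DG RUN7 (2.45%), 9 (35.7%) and 16 (34.7%) in DG against LEC, 2 for the RUN7 effect (0.796%) and 0.0312 for the ACR7 effect. DG RUN7 had 1 without the detection filter (1.5%), 1 with the replicate block (3.08%) and 0 with only its own groups (0.853%). The RUN7 effect between tissues had 0 without the filter (0.416%), 2 with detection at 0.01 in every array (1.95%), 2 with 1 probe per gene (1.18%) and 2 without the mouse block (1.65%), and control arrays alone gave 2 higher in DG than LEC (27.8%). The replicate block gave 19 higher in LEC RUN28 (3.27%).

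With all 14-day controls the medians were 0.14 (DG RUN14), -0.0721 (DG ACR14 minus RUN14) and 0.076 (RUN14 effect between tissues), and 4 members were lower in LEC ACR14 minus RUN14 (0.482%). With the other set's controls DG RUN14 had 5 lower (1.07%) and 0.0071, DG ACR14 0.31, DG ACR14 minus ACR7 0.41, DG ACR14 minus RUN14 11 higher (5.09%) and 0.32, and between tissues RUN14 -0.0638 and ACR14 3 higher (0.383%) and 0.61. Against the controls of days 7 and 14, a choice made after seeing the data, RUN28 had 5 higher (1.35%) and 0.31 in DG and 10 higher (4.31%) and 0.27 in LEC, and the RUN28 effect between tissues had 0 lower (0%) and 0.0655, against 4 lower and -0.33 from CTR28.

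Leaving out 1 array gave 0 (0.0079% to 1.79%) to 5 (6.94%) higher in DG RUN7 and 0 to 1 lower in DG RUN28. LEC RUN7 had 0 to 2 higher, with a median of -0.16 to 0.0515. LEC ACR14 had 0 to 2 lower (0.973% at 2) and LEC ACR14 minus ACR7 0 to 3 lower (0.793% at 3). LEC RUN28 had 6 (1.48%) to 28 (7.59%) higher. Between tissues the RUN7 effect had 0 (0.0459% to 0.819%) to 5 (3.83%) higher, with a median of 0.0667 to 0.32. The RUN28 effect between tissues had 1 (0.413% and 0.551%) to 5 lower. Medians were -0.19 to 0.10 in DG ACR14 minus ACR7 and -0.31 to 0.0224 for the ACR7 effect between tissues. The 2 LEC RUN7 calls came without RUN7 replicate 1 (1.7%), and the 1 DG RUN28 call without CTR28 replicate 1 (0.213%).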
